A study of Mus musculus with 32 samples.

Results

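The F-box and TRIM genes are the 2 large gene families to which the best known ubiquitin ligases of muscle wasting belong. The members described here were the protein-coding genes named Fbxl, Fbxo, Fbxw or Trim plus a number, without the 4 genes whose part in atrophy is established (Trim63, Fbxo32, Fbxo30 and Fbxo40), with a mean of at least 1 CPM (counts per 1000000 counts of a library) over all 32 libraries. Of 55487 gene identifiers in the table, 128 protein-coding genes carried such a name, and 74 of these were members: 15 Fbxl, 22 Fbxo, 8 Fbxw and 29 Trim genes. The other 54 lay under the threshold, and 25 of them had no count in any library. Just inside the threshold were Fbxl7 at 1.06 CPM and Fbxl8 at 1.20 CPM, and just outside were Trim62 at 0.918 CPM and Trim17 at 0.860 CPM. All 74 members also passed the filter on low counts, so no member was lost before testing.

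The muscle was the gastrocnemius of young male mice, and each of the 32 libraries is labelled as a separate sample. At 7 days after surgery there were 4 sham mice given vehicle, 6 mice with a complete spinal cord injury (SCI) given vehicle, and 6 with SCI given boldine, a plant alkaloid known as a blocker of connexin and pannexin hemichannels. The same 3 groups, of 4, 6 and 6 mice, were sampled at 28 days, and no sham group received boldine. The labels do not say how mice were housed or operated on together, so every p-value given speaks only of how far these samples spread. In whole muscle, fewer cells of a type and less RNA per cell cannot be told apart.

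An F-box protein is the substrate-binding subunit of an SCF ligase, in which Skp1 links it to the scaffold Cul1 and the RING protein Rbx1 recruits the ubiquitin-conjugating enzyme. The letters after Fbx tell what binds the substrate: leucine-rich repeats in Fbxl, WD40 repeats in Fbxw, and other domains in Fbxo. Most TRIM proteins carry a RING domain, B-boxes and a coiled coil in a single chain and can act as ligases alone. In wasting muscle, Trim63 (MuRF1) and Fbxo32 (atrogin-1) are the textbook markers, and both are targets of FoxO transcription factors.

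These 2 reference genes gave the course against which the members were read. Trim63 stood at 185, 305, 200 and 191 CPM in the 4 sham libraries at 7 days. With SCI and vehicle its lowest, median and highest values at 7 days were 542, 625 and 1395 CPM, all above sham. At 28 days the same group ranged from 157 to 233 CPM and overlapped the sham range of 170 to 267 CPM. Fbxo32 went the same way, with a log2 fold change of 1.5 ± 0.24 (SE) at 7 days and 0.01 ± 0.23 at 28 days. The course of these 2 genes was therefore a high level at 7 days and no called difference from sham at 28 days. The excluded genes Fbxo30 and Fbxo40 did not both share it. At 7 days Fbxo30 had a log2 fold change of 1.30 ± 0.21. Fbxo40 was lower, at 504 CPM in sham and 275 CPM after SCI with vehicle, a log2 fold change of -0.87 ± 0.13. Neither was called at 28 days.

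Of the 74 members, 19 were higher and 17 lower in SCI with vehicle than in sham at 7 days, by edgeR's quasi-likelihood test over 14955 genes at an adjusted p under 0.05. Among all genes tested 21.5% were called higher and 23.1% lower, and the members' shares of 25.7% and 23.0% lay near these. The members' median log2 fold change was 0.00, against -0.02 over all genes. By family, 2 of 15 Fbxl genes rose and 3 fell, 6 of 22 Fbxo genes rose and 7 fell, 4 of 8 Fbxw genes rose and 1 fell, and 7 of 29 Trim genes rose and 6 fell. Of the 36 called members, 21 had no overlap between the SCI and sham libraries. These were 28.4% of the members, near the 27.1% of all genes tested that were called without overlap. Only 6 differed beyond 2-fold: Fbxl8, Fbxo17 and Fbxw17 upwards, and Trim35, Trim47 and Trim72 downwards. No member rose as far as Trim63, whose log2 fold change was 1.78 ± 0.24.

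The split between rises and falls depended on scaling. The values above rest on edgeR's TMM scaling, a trimmed mean over genes that sets aside the most changed ones; scaled by library totals alone, the median of all genes at 7 days moved up by 0.39 on the log2 scale, and 44 members were called higher and 6 lower, against 47.5% and 9.11% of all genes. All 19 rises held their call under that scaling, but it moved log2 fold changes up, so their holding carries little information. The 6 falls that held were those of Trim35, Trim47, Trim72, Fbxo9, Trim55 and Fbxl17. Muscle fibre markers were mostly lower in SCI with vehicle at 7 days under either scaling. The summed level of 9 tested markers was 162100 to 220300 CPM in sham and 65640 to 133800 CPM in SCI with vehicle. Of the 9, 7 were called lower and 1 higher, and library totals gave the same counts.

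**Figure D1:**
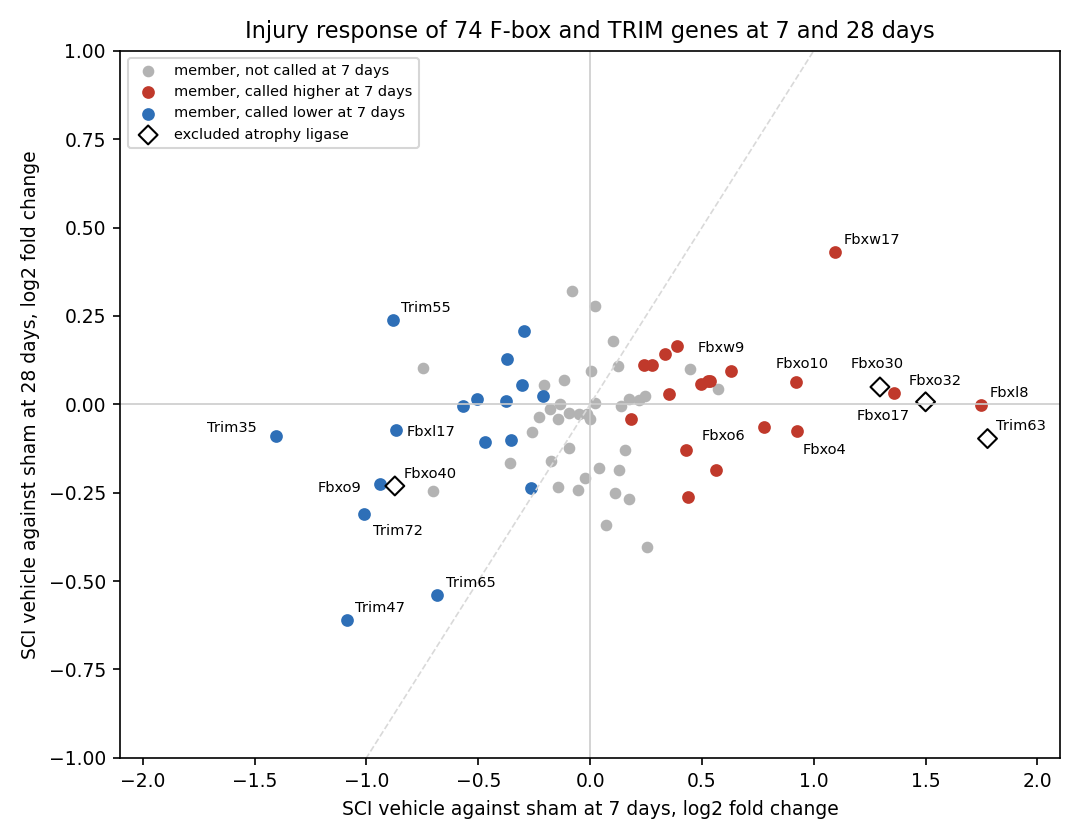
Each point is 1 of the 74 members, with the log2 fold change of SCI with vehicle against sham at 7 days across and at 28 days upwards; red and blue mark members called higher or lower at 7 days, diamonds the 4 excluded ligases, and the dashed line equal change at both days. Members spread from -1.41 to 1.75 across but only from -0.61 to 0.43 upwards, with Trim47 and Trim65 lowest at 28 days.

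An early rise like that of Trim63 was defined by calls: higher at 7 days, and an injury effect at 28 days called lower than that at 7 days. It held for 6 members, namely Fbxo17, Fbxo6, Trim25, Fbxo21, Trim16 and Trim28. Among all genes 11.1% met it, and 8.11% of the members did. The difference between days itself was called lower for 6 members and higher for 9, against 12.3% and 11.6% of all genes. With library totals those 2 counts became 46 and 2, against 42.1% and 3.56% of all genes.

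Fbxo17 came nearest to the reference genes in course. It lies on chromosome 7 from 28716804 to 28738144 on the plus strand (mm10, GENCODE M21), and its product has the sugar-binding domain of the F-box proteins that recognise glycoproteins. The 4 sham libraries at 7 days held 7.01, 4.68, 7.19 and 4.27 CPM. In SCI with vehicle the lowest, median and highest values were 9.01, 14.0 and 21.7 CPM, and in SCI with boldine 11.1, 14.7 and 17.0 CPM. Every injured library at 7 days was thus above every sham library. At 28 days sham ran from 4.40 to 6.96 CPM and SCI with vehicle from 4.92 to 7.87 CPM, and the groups overlapped. The log2 fold change was 1.36 ± 0.21 at 7 days (adjusted p 3.6e-06) and 0.03 ± 0.22 at 28 days, and the difference between days was -1.32 ± 0.30 (adjusted p 0.0016).

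Over the 6 group means, the log2 CPM of Fbxo17 had a Pearson r of 0.99 with the mean of Trim63 and Fbxo32. The next most alike were Trim27 at 0.99, Fbxo6 at 0.96, Trim44 at 0.95 and Trim28 at 0.94. These r describe 6 group means that share libraries and scaling, and carry no test. At the other end were Fbxo44 at -0.99, Trim35, Trim54 and Trim55 at -0.98 each, and Fbxo9 at -0.97.

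The stretch before the start of transcription is shown for Fbxo17 and Fbxw17, 2 of the members that rose most, beside that of Trim63, since these genes rose together at 7 days. Each line is the 250 bases before a RefSeq start on the plus strand of GRCm38.p6, at chr7:28716532-28716781 for Fbxo17, chr13:50417614-50417863 for Fbxw17 and chr4:134314870-134315119 for Trim63. Capitals mark GTAAACA, the letters of a FoxO element, found here on the other strand, and CAGCTG, the letters of an E-box that myogenic factors such as myogenin bind. Both strands were searched, CAGCTG reads the same on both, and no match overlapped one of the other motif in these lines.
Fbxo17: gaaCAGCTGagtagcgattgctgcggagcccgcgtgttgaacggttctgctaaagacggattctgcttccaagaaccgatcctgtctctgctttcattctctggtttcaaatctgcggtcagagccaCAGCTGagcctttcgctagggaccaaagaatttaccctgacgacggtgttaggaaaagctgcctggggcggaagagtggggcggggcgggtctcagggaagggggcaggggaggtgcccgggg
Fbxw17: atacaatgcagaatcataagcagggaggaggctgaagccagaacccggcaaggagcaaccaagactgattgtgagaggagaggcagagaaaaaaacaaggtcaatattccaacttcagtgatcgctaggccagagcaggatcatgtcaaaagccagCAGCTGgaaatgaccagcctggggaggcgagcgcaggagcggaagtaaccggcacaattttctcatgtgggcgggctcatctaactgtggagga
Trim63: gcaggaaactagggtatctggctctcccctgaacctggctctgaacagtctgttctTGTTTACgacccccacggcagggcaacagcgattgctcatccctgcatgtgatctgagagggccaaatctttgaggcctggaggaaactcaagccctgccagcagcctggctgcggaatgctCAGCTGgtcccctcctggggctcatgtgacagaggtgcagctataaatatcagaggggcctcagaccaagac

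The Trim63 window held GTAAACA 194 bases and CAGCTG 72 bases before its start. The same search gave no match of either motif for Fbxo32 or Fbxo30, and whether windows for these genes were present was not recorded. RefSeq windows matched 56 of the 74 members by symbol, 80 windows in all. None of the 80 held GTAAACA, against 3.17% of 32851 windows over all genes. CAGCTG was in 17 of the 80 windows, 21.2%, against 13.0% of all windows. Among its 13 genes, Fbxo17 and Fbxw17, printed above, were the only members called higher at 7 days, and Fbxl17 and Trim54 were called lower. The rest were not called at 7 days: Fbxo28, Fbxw5, Trim2, Trim32, Fbxo7, Trim7, Fbxl7, Trim39 and Trim26. No match was found for any other member that rose. A match is only a run of letters, and letters missing from these windows say nothing of sites elsewhere.

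Fbxo6, whose product binds N-glycans of misfolded glycoproteins in endoplasmic reticulum clearance, had the next largest early rise. Sham libraries at 7 days held 24.0, 23.8, 31.6 and 26.2 CPM. SCI with vehicle had a lowest, median and highest value of 39.5, 44.5 and 53.4 CPM, with no overlap. Its log2 fold change was 0.78 ± 0.11 at 7 days (adjusted p 5.8e-07) and -0.07 ± 0.11 at 28 days, with a difference between days of -0.84 ± 0.15 (adjusted p 0.00014). Fbxo44, the third expressed gene with the domain described for Fbxo17, had a lower mean after SCI with vehicle at 7 days. It went from 4.85 ± 0.85 CPM (SD, n = 4) in sham to 3.51 ± 0.61 CPM (n = 6). That fall of Fbxo44 (log2 fold change -0.47 ± 0.19, adjusted p 0.038) did not hold in every setting. It lost its call without sham library 3 or 4 or any of SCI vehicle libraries 1 to 4 (adjusted p 0.069 to 0.13). With library totals it was -0.08 (adjusted p 0.75), and with no filter on low counts its adjusted p was 0.09.

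Trim25, an interferon-inducible ligase that modifies the RNA sensor RIG-I, stood at 13.6, 9.36, 15.9 and 14.3 CPM in sham at 7 days. With SCI and vehicle it ranged from 16.5 to 24.0 CPM with a median of 20.0, just above the highest sham library. Trim25 had a log2 fold change of 0.56 ± 0.12 (adjusted p 0.0003). A list of 12 tested interferon response genes did not share this rise: none was called higher and 1 was called lower. Their median log2 fold change was -0.36, or 0.03 with library totals, under which 1 was called higher and none lower.

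Fbxo21, reported in mouse as a FoxO-dependent ligase needed for denervation atrophy and named SMART there, rose by 0.54 ± 0.09 on the log2 scale (adjusted p 8.9e-06). Sham libraries at 7 days held 16.0, 13.2, 15.2 and 16.1 CPM, and SCI with vehicle 19.4 to 23.6 CPM with a median of 22.1. After SCI with vehicle it stood at 22.0 ± 1.6 CPM (SD, n = 6) at 7 days and 21.6 ± 1.8 CPM at 28 days, while sham went from 15.1 ± 1.3 to 20.6 ± 2.2 CPM (n = 4). The called difference between days in Fbxo21 (-0.47 ± 0.12, adjusted p 0.0053) thus stood beside a higher sham mean at 28 days. Its r with the reference course was 0.40.

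Trim16, known for its part in the autophagy of damaged lysosomes, rose at 7 days and was below sham at 28 days. At 7 days it held 44.8, 39.6, 45.8 and 40.0 CPM in sham and 53.4 to 65.7 CPM after SCI with vehicle. At 28 days it held 50.9, 47.7, 60.3 and 53.2 CPM in sham and 39.0 to 46.8 CPM after SCI with vehicle, so the groups did not overlap on either day. Trim16 changed by 0.44 ± 0.08 on the log2 scale at 7 days (adjusted p 4.7e-05) and by -0.26 ± 0.08 at 28 days (adjusted p 0.035). The 28-day call was lost without sham library 3 (adjusted p 0.19) or 4, or without SCI vehicle library 4, 5 or 6. Trim16 shares 237 exon bases with Fbxw10 on the same strand.

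Trim28 (KAP1), a corepressor that also works with MyoD and Mef2 in muscle, rose by 0.35 ± 0.09 on the log2 scale (adjusted p 0.0011). Sham at 7 days held 45.4, 53.6, 51.5 and 48.0 CPM, and SCI with vehicle 57.3 to 61.5 CPM in 5 libraries and 83.2 CPM in library 2. The same library 2 held the highest Trim63 level, 1395 CPM. The difference between days for Trim28 (-0.32 ± 0.12, adjusted p 0.049) was lost when any of 12 libraries was left out, at adjusted p up to 0.11. It was also lost with no filter on low counts (adjusted p 0.094) and with the library set term described with the 28-day results (0.11). Its place among the early rises is thus at the edge of the definition.

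**Figure D2:**
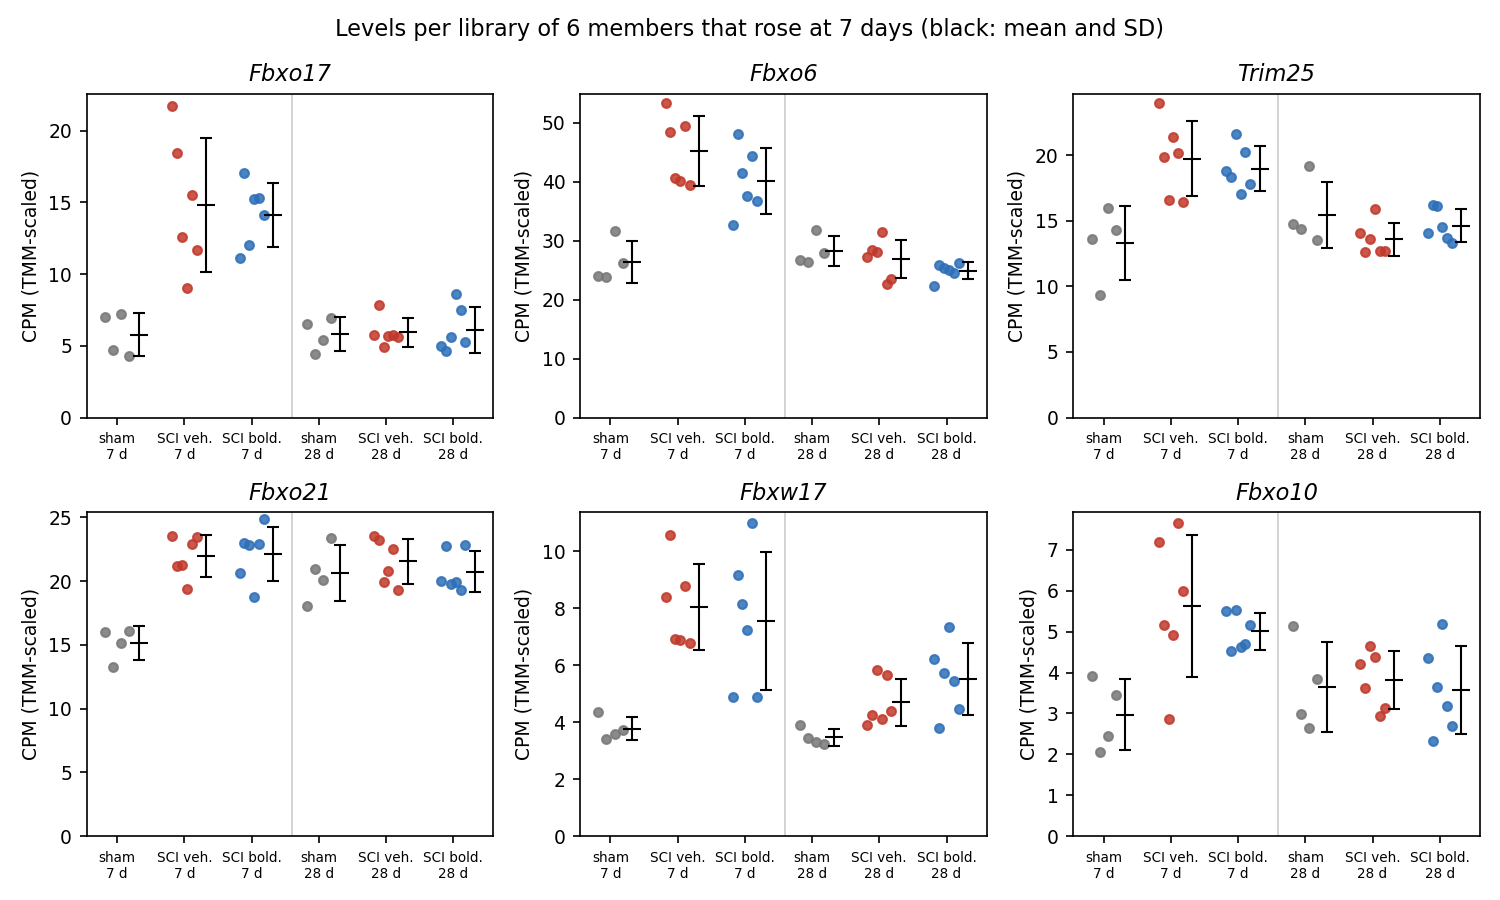
Level in CPM of TMM-scaled libraries (vertical axis, from 0) of 6 members that rose at 7 days, with 1 point per library, the 6 groups along the horizontal axis, and black bars for mean and SD. Fbxo17, Fbxo6, Trim25, Fbxo21 and Fbxw17 had no SCI vehicle library within the sham range at 7 days, while 1 Fbxo10 library did.

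A further 13 members were called higher at 7 days without a called difference between days: Fbxl6, Fbxl8, Fbxo10, Fbxo38, Fbxo4, Fbxw17, Fbxw4, Fbxw8, Fbxw9, Trim11, Trim27, Trim37 and Trim44. Their log2 fold changes ran from 0.18 to 1.75 at 7 days and from -0.13 to 0.43 at 28 days, where none was called. A difference between days that misses the threshold does not show that the rise lasted. Some of these 7-day calls were fragile. Fbxo38 lost its call with no filter on low counts (adjusted p 0.08), with a replicate block (0.095) and without sham library 4 (0.23), among others. Fbxl6 lost it without sham library 1 (0.15), 2 or 4 or SCI vehicle library 2. Fbxw4 lost it with no filter (0.12) and without sham library 1 (0.2) or 3.

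Fbxl8 had the largest log2 fold change of all members, 1.75 ± 0.49 (adjusted p 0.0044), on few counts. Its 4 sham libraries at 7 days held 3, 2, 10 and 6 counts, and the SCI vehicle libraries from 6 to 36. In CPM these were 0.228 to 0.877 in sham and 0.557 to 2.54 after SCI, and 1 SCI library lay within the sham range. All sham libraries at 7 days thus lay under the membership threshold of 1 CPM, and the mean over all libraries, 1.20 CPM, was just above it. Membership of Fbxl8 rested in part on the injured libraries in which it was high. Its place among the called rises is therefore not independent of the rule that chose the members.

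Fbxw17, on chromosome 13 from 50417864 to 50433780 on the plus strand, rose from 4.35, 3.43, 3.59 and 3.72 CPM in sham to a lowest, median and highest value of 6.76, 7.65 and 10.6 CPM after SCI with vehicle at 7 days. No injured library reached down to sham. The log2 fold change of Fbxw17 was 1.10 ± 0.21 at 7 days (adjusted p 5.9e-05) and 0.43 ± 0.21 at 28 days (adjusted p 0.23). At 28 days every SCI vehicle library, from 3.91 to 5.85 CPM, still lay above the 4 sham libraries, from 3.23 to 3.90 CPM. In SCI with boldine at 28 days it stood at 5.50 ± 1.27 CPM (SD, n = 6), called higher than sham (log2 fold change 0.67 ± 0.21, adjusted p 0.027). That call was lost with library totals (adjusted p 0.099) and without sham library 2, 3 or 4 or boldine library 1 or 4 (0.052 to 0.075).

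Fbxo4, which targets cyclin D1 in cultured cells, and Fbxo10, which targets BCL2 in human lymphoma cells, both rose by 0.92 on the log2 scale, with SE of 0.28 and 0.24 and adjusted p of 0.0072 and 0.0022. Both were low: Fbxo4 went from 1.82 ± 0.67 CPM to 3.47 ± 0.79 CPM and Fbxo10 from 2.97 ± 0.87 to 5.63 ± 1.73 CPM (SD, n = 4 and n = 6). In each gene 1 SCI library fell within the sham range. Fbxw9 rose by 0.63 ± 0.26 (adjusted p 0.048), a call lost with the library set term described with the 28-day results (adjusted p 0.05) and without any of 6 libraries (up to 0.13). Fbxw9 overlaps A230103J11Rik on the other strand by 217 exon bases.

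Trim27, a regulator of endosomal actin and the retromer, held 20.9, 20.0, 20.2 and 16.4 CPM in sham at 7 days and 21.1 to 36.4 CPM, with a median of 26.4, after SCI with vehicle. Trim44, an atypical TRIM protein without a RING domain, held 34.2, 34.5, 33.0 and 36.4 CPM in sham and 40.0 to 47.3 CPM after SCI. In both genes every SCI library lay above every sham library. Log2 fold changes were 0.53 ± 0.14 (adjusted p 0.0023) for Trim27 and 0.34 ± 0.07 (adjusted p 9.9e-05) for Trim44. Trim37, whose loss causes a growth disorder in people, rose by 0.43 ± 0.15 (adjusted p 0.019), a call lost without sham library 4 (adjusted p 0.055).

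The largest movements of members were not all rises. An early fall, called lower at 7 days with a difference between days called higher, held for 9 members, among them Fbxl17, Fbxl20, Fbxo25, Fbxo45, Fbxo9, Trim35, Trim55 and Trim72. Among all genes 10.1% met it, and 12.2% of the members did. Scaled by library totals, the called difference between days was kept for Trim35 and Trim55 only. Fbxo25 met the definition at its edge. Its difference between days had an adjusted p of 0.05 and lost its call in every other setting tried, DESeq2 (0.052) and the replicate block (0.067) among them, and when any 1 of 12 libraries was left out; its 7-day call was lost without sham library 2 or SCI vehicle library 2.

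Trim35 fell most. It lies on chromosome 14 from 66297031 to 66311424 on the plus strand and overlaps 1700001G11Rik on the other strand by 99 exon bases, which these libraries cannot separate. Sham libraries at 7 days held 168, 161, 152 and 174 CPM. The SCI vehicle libraries 1 to 6 held 39.8, 54.4, 94.2, 90.4, 51.4 and 41.5 CPM, and the SCI boldine libraries 35.5 to 57.9 CPM. Vehicle libraries 3 and 4 lay nearest sham but still far below it. At 28 days sham ran from 134 to 182 CPM and SCI with vehicle from 119 to 189 CPM. The log2 fold change was -1.41 ± 0.18 at 7 days (adjusted p 1e-07), -0.09 ± 0.18 at 28 days, and the difference between days 1.32 ± 0.26 (adjusted p 0.00029). With library totals the 7-day change was -1.05.

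The 3 MuRF genes, which share their domain plan and act at the sarcomere and on microtubules, did not share a single course. Trim63 (MuRF1) rose. Trim55 (MuRF2) held 68.7, 72.2, 78.5 and 71.0 CPM in sham at 7 days and 36.2 to 43.4 CPM, with a median of 39.2, after SCI with vehicle. Its log2 fold change was -0.88 ± 0.07 (adjusted p 2.3e-11), the smallest adjusted p of any member, and -0.49 with library totals. At 28 days Trim55 was above sham by 0.24 ± 0.07 (adjusted p 0.034), at 71.4 to 91.4 CPM against 62.1 to 74.5 CPM. That late rise was the only call of a higher member on that day, and it was lost with library totals, with the library set term (adjusted p 0.21) and without sham library 1, 3 or 4 or SCI vehicle library 3, 5 or 6 (adjusted p 0.056 to 0.15).

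Trim54 (MuRF3) had the highest level per length of all members, 281 CPM per kb of exon over all libraries, against 140 for Trim63 and a median of 3.80 over the members. In sham at 7 days it held 356, 474, 437 and 411 CPM, and after SCI with vehicle 346 to 390 CPM. Its change was called lower with TMM (log2 fold change -0.21 ± 0.08, adjusted p 0.026) and turned to 0.19 (adjusted p 0.03) with library totals, so its direction was not settled. The call was also lost without sham library 2 (adjusted p 0.16) or 3, without SCI vehicle library 2, 3, 5 or 6 (0.056 to 0.07), with the replicate block (0.058) and with no filter on low counts (0.094). Trim54 overlaps Gm15469 on the other strand by 382 exon bases.

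Trim72 (MG53), which helps to reseal the torn fibre membrane, was second in level at 63.9 CPM per kb. It held 183, 163, 191 and 216 CPM in sham at 7 days and 72.1 to 117 CPM, with a median of 91.2, after SCI with vehicle. No library overlapped. The log2 fold change of Trim72 was -1.01 ± 0.12 (adjusted p 2e-08), or -0.62 with library totals, and at 28 days it was -0.31 ± 0.12 (adjusted p 0.096). Trim72 overlaps Gm15533 on the other strand by 617 exon bases.

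Fbxo9, an F-box protein tied to the stability of mTOR-pathway components in human myeloma cells, held 48.3, 70.6, 53.0 and 55.5 CPM in sham at 7 days. SCI vehicle libraries 1 to 6 held 22.6, 22.1, 43.5, 37.8, 24.5 and 27.8 CPM, and again libraries 3 and 4 were nearest to sham. Fbxo9 had a log2 fold change of -0.94 ± 0.16 (adjusted p 1.1e-05). The difference between days, 0.71 ± 0.22 (adjusted p 0.019), was lost without sham library 2 at 7 days (adjusted p 0.06).

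Fbxl17, which clears faulty BTB-domain dimers in human cells, fell from 53.0 ± 5.8 CPM to 29.0 ± 5.1 CPM (SD, n = 4 and n = 6), a log2 fold change of -0.87 ± 0.15 (adjusted p 1.4e-05). Fbxo45, needed in mouse for normal neuromuscular synapses, fell from 34.2 ± 3.0 to 23.1 ± 4.0 CPM, a log2 fold change of -0.57 ± 0.10 (adjusted p 1.5e-05). In both the SCI libraries lay below all sham libraries, yet with library totals the fall of Fbxo45 was no longer called. Fbxl20, known in mouse brain as a regulator of a presynaptic protein, had the smallest called early fall, -0.29 ± 0.11 (adjusted p 0.023), which turned to 0.09 with library totals. Fbxl20 lost its 7-day call with no filter on low counts (adjusted p 0.051) and without sham library 1 or SCI vehicle library 1, 4 or 5, at adjusted p from 0.061 to 0.076. Its difference between days was lost with the library set term (adjusted p 0.058).

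**Figure D3:**
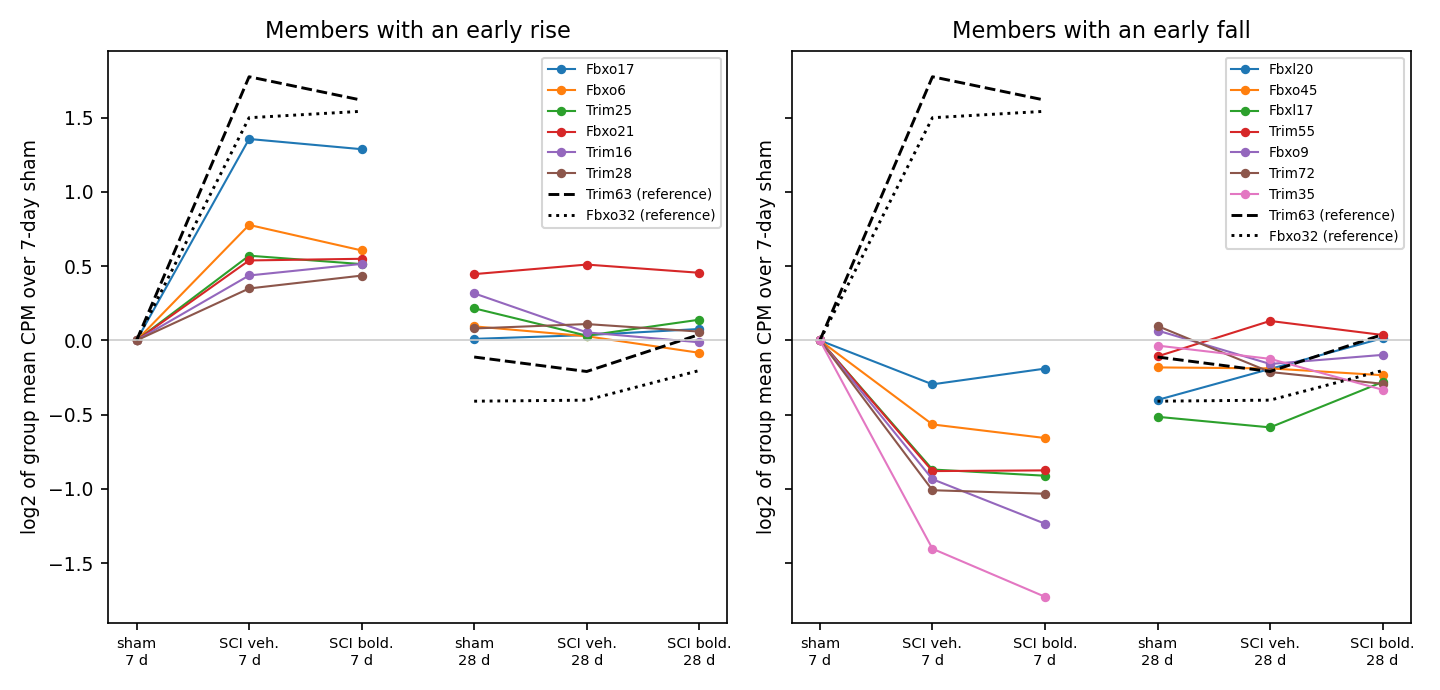
Log2 of the group mean CPM relative to 7-day sham (vertical axis) in the 6 groups (horizontal axis) for the 6 members with an early rise (left) and 7 of the 9 with an early fall (right), with Trim63 and Fbxo32 as dashed and dotted lines. Fbxo17 runs closest to the reference lines at 7 days, Trim35 is lowest, and Fbxo21 stays near 0.5 in all groups other than 7-day sham.

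A kept fall, called lower at both days, was seen in Trim47 alone. Trim47 held 8.17, 6.74, 7.63 and 6.27 CPM in sham at 7 days and 2.88 to 4.04 CPM after SCI with vehicle, a log2 fold change of -1.09 ± 0.18 (adjusted p 5.9e-06). At 28 days it held 9.03, 12.8, 10.2 and 7.26 CPM in sham and 4.77 to 7.87 CPM after SCI, a change of -0.61 ± 0.17 (adjusted p 0.016). The 28-day call was lost without sham library 2 (adjusted p 0.13) or 3 (0.051), and 1 sham library lay within the SCI range. Its neighbour Trim65 on chromosome 11, with which it shares 225 exon bases on the same strand, fell by 0.68 ± 0.18 at 7 days (adjusted p 0.0028), not called with library totals, and stood at -0.54 ± 0.18 at 28 days (adjusted p 0.054). Reads in the shared stretch could count for either gene.

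Both falls stood beside a lower level of endothelial markers, of which 5 of 6 were called lower at 7 days and 2 of 6 at 28 days. Their summed level ran from 202.9 to 283.6 CPM in sham and from 136.8 to 180.5 CPM after SCI with vehicle at 7 days, and from 307.5 to 376 and from 217.9 to 264.1 CPM at 28 days. Markers of fibro-adipogenic progenitors were lower in 4 of 6 at 7 days, with sums of 205.8 to 371 CPM in sham and 145.2 to 234.1 CPM after SCI. With library totals 2 of 6 endothelial and 3 of 6 progenitor markers were lower at 7 days. Satellite cell markers were higher in 2 of 3, from 19.43 to 28.49 CPM in sham to 46.25 to 57.67 CPM. Of 7 macrophage markers 1 was higher, with overlapping sums of 43.85 to 74.6 and 33.07 to 64.44 CPM. Neither of 2 Schwann cell markers was called, 1 of 2 neutrophil markers was lower, and no lymphocyte marker passed the filter, with 0 as the lowest level of each. The part of these shifts in the members' changes was not tested.

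The other falls at 7 days without a called difference between days were those of Fbxo34, Fbxo42, Fbxo8 and Fbxw7. Fbxw7, which targets Myc, cyclin E and Notch, went from 33.2 ± 2.8 CPM to 27.7 ± 2.5 CPM (log2 fold change -0.26 ± 0.11, adjusted p 0.045). That call was lost without any of 8 libraries and turned to 0.13 with library totals. Fbxo34, Fbxo42 and Fbxo8 also came out at or above 0 with library totals, so none of these 4 had a settled direction.

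**Figure D4:**
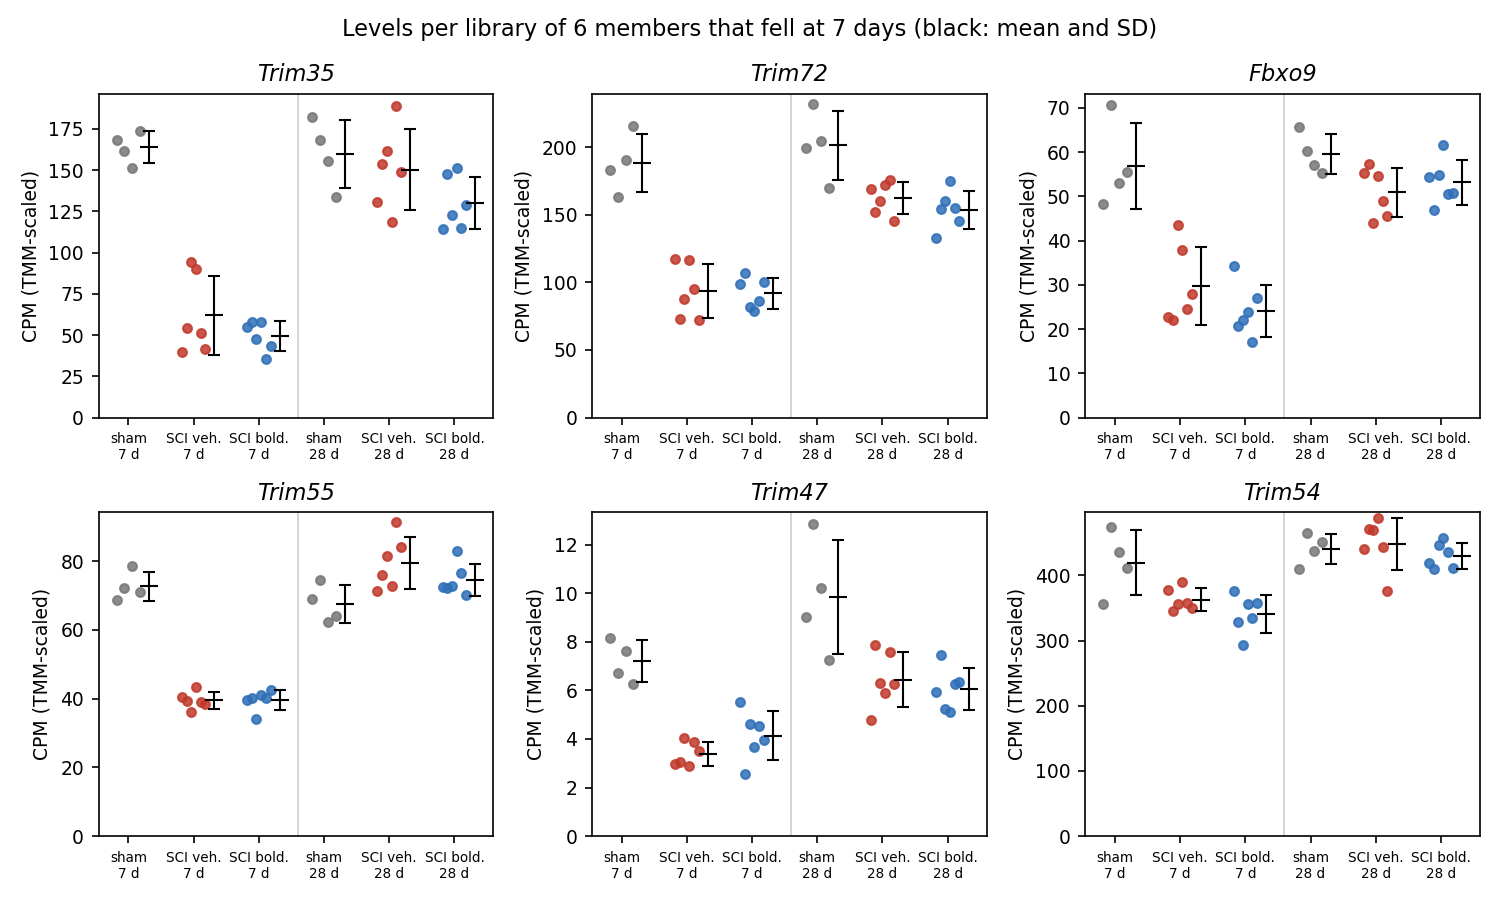
Level in CPM of TMM-scaled libraries (vertical axis, from 0) of 6 members called lower at 7 days, 1 point per library, with the 6 groups along the horizontal axis and black bars for mean and SD. Trim55 at 7 days spans 36.2 to 43.4 CPM after SCI with vehicle, far from sham, while the Trim54 groups overlap, and its fall turned to a rise with library totals.

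At 28 days few members differed from sham after SCI with vehicle. Trim55 was higher, and Fbxw5, Trim16 and Trim47 were lower, against 4.05% of all genes called higher and 4.88% lower. Fbxw5, an F-box protein with WD40 repeats, was the only member called at 28 days and not at 7. It held 90.5, 95.7, 97.3 and 84.0 CPM in sham and 74.7 to 82.0 CPM after SCI, with no overlap and a log2 fold change of -0.23 ± 0.07 (adjusted p 0.044). That call was lost without any of 8 of the 10 libraries, at adjusted p up to 0.15. None of the members that rose at 7 days was still called higher.

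By the level of 1 gene, Hipk2, the 28-day libraries fell into 2 sets that no label names. Hipk2 stood at 4.98 to 21.8 CPM in 8 libraries, namely the 4 sham and the SCI vehicle libraries 1 to 4 at 28 days, and at 47.0 to 119 CPM in the other 24. With this set as a term, Trim47 kept its 28-day call (adjusted p 0.026) and the 3 other calls were lost. At 7 days 18 members were then higher and 18 lower, against 21.7% and 23.3% of all genes. For boldine against sham at 28 days, where the sham libraries lie in 1 set and the boldine libraries in the other, set and group cannot be told apart except through the SCI vehicle libraries. Boldine against SCI with vehicle at 28 days is mixed with set in part, since SCI vehicle libraries 1 to 4 lie in the set without boldine.

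Boldine was not seen to change any member. Against SCI with vehicle, 0 of 74 members were called at 7 days, where 0.00669% of all genes were called higher and 0.0267% lower. At 28 days it was again 0 of 74, with 0.0134% of all genes called higher and 0.00669% lower. At an unadjusted p under 0.05 edgeR gave 8 members at 7 days and 4 at 28 days, and DESeq2 gave 9 and 5 with none called, though it set no adjusted p for 29 members at 28 days. The smallest adjusted p with edgeR was 0.242 at 7 days and 0.291 at 28 days. Log2 differences between boldine and vehicle ran from -0.32 to 0.43 at 7 days and from -0.56 to 0.32 at 28 days. These tests do not show that the treatments act alike.

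The members nearest to a call at 7 days were Fbxl14, at 12.6 ± 1.3 CPM with vehicle and 10.4 ± 0.9 CPM with boldine (log2 difference -0.28 ± 0.09, adjusted p 0.24), and Trim24, at 69.0 ± 10.2 and 59.0 ± 2.0 CPM (-0.23 ± 0.07, adjusted p 0.25). Fbxl5, the iron-sensing F-box protein, was next among the lower ones (-0.19 ± 0.08, adjusted p 0.39). Trim65 (0.43 ± 0.16, adjusted p 0.35), Trim7 (0.27 ± 0.14) and Trim8 (0.20 ± 0.10) had the smallest p among those with higher means with boldine. At 28 days Fbxo28 (0.20 ± 0.07, adjusted p 0.29), Fbxl17 (0.31 ± 0.14) and Fbxl20 (0.21 ± 0.10) had higher means with boldine, and Trim37 (-0.35 ± 0.14, adjusted p 0.39), Trim24 (-0.15 ± 0.08) and Trim65 (-0.34 ± 0.17) lower ones. Trim65 lay on opposite sides of vehicle at the 2 days, with neither difference called. The 28-day differences are partly mixed with the library sets, since the boldine libraries share a set with SCI vehicle libraries 5 and 6 only. Fbxl17 held 21.8 to 35.2 CPM in vehicle libraries 1 to 4, and 52.1 and 40.1 CPM in 5 and 6. Fbxo28 did not differ in that way, at 20.3 to 21.7 CPM and at 19.8 and 20.0 CPM.

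Set against the same sham mice, SCI with boldine at 7 days had 18 members higher and 20 lower, where 21.7% and 22.5% of all genes were called. Both injured groups share these sham libraries, so their lists are given side by side only. In all, 30 members were called with both treatments, 6 with vehicle alone (Fbxl20, Fbxo38, Fbxo44, Fbxw9, Trim37 and Trim65) and 8 with boldine alone (Fbxl14, Fbxl18, Fbxl5, Fbxo11, Fbxo36, Fbxw5, Trim24 and Trim39), while no direct difference passed. Fbxo17 changed by 1.36 with vehicle and 1.28 with boldine, Trim35 by -1.41 and -1.73, Trim55 by -0.88 in each, and Fbxo9 by -0.94 and -1.24, all on the log2 scale.

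At 28 days SCI with boldine had 4 members higher than sham (Fbxl20, Fbxw17, Trim33 and Trim44) and 7 lower (Fbxw5, Trim16, Trim37, Trim41, Trim47, Trim65 and Trim72), where 8.79% and 9.35% of all genes were called. Trim65 differed most, at 6.20, 7.12, 6.73 and 7.87 CPM in sham and 3.56 to 4.53 CPM with boldine, a log2 fold change of -0.88 ± 0.18 (adjusted p 0.00093). Trim33, a corepressor in the Smad pathway, held 11.8, 10.5, 14.4 and 9.69 CPM in sham and 13.3 to 17.0 CPM with boldine (0.39 ± 0.11, adjusted p 0.011), a call lost with library totals (adjusted p 0.078) and without sham library 2 (0.054) or 4 (0.062). With the library set term none of these 11 was called, where 0.602% of all genes were called higher and 0.863% lower.

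**Figure D5:**
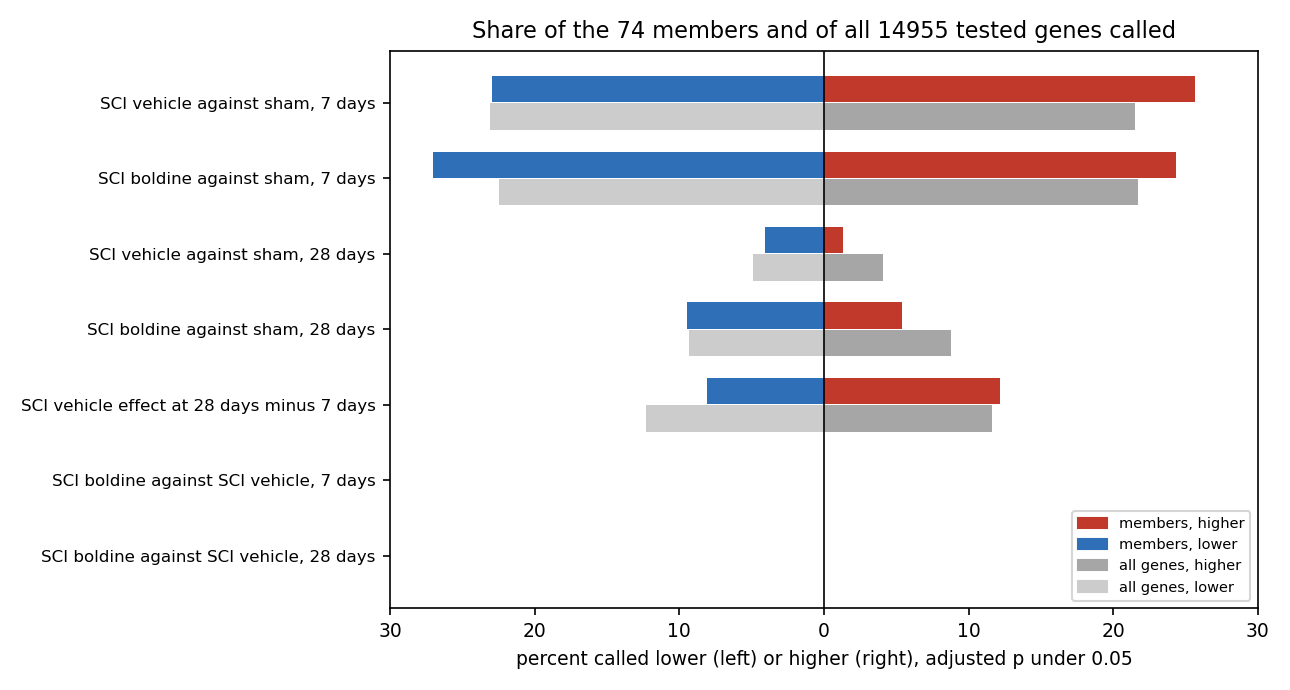
Percent of the 74 members (red and blue) and of all 14955 tested genes (grey) called higher (right) or lower (left) at an adjusted p under 0.05 in each of 7 comparisons (vertical axis). Member shares lie near those of all genes in the 7-day comparisons with sham, at 25.7% and 23.0% against 21.5% and 23.1% with vehicle, and no bar is visible for boldine against vehicle.

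The partners of the F-box members in the ligase were examined next. Of 25 tested genes of the SCF core and its regulators, 12 rose and 4 fell at 7 days, with a median log2 fold change of 0.17, and with library totals 22 rose and 2 fell. Skp1a, the adaptor that holds the F-box, rose from 186 to 286 CPM (0.62 ± 0.07, adjusted p 1.1e-08), and the scaffold Cul1 from 107 to 125 CPM (0.23 ± 0.06, adjusted p 0.0033). Cops5, the catalytic subunit of the COP9 signalosome, which removes Nedd8 from cullins, rose by 0.65 ± 0.07 (adjusted p 7.6e-09), while Dcun1d1 and Dcun1d2, which help to attach Nedd8, fell by 0.71 ± 0.12 and 0.64 ± 0.08. At 28 days none of the 25 was called.

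Genes of both families under other symbols were mostly not higher. Of 7 F-box genes such as Skp2 and Btrc, none rose and 1, the histone demethylase gene Kdm2b, fell (-1.17 ± 0.20, adjusted p 9e-06), while with library totals 3 rose and 1 fell. Of 9 TRIM genes, Mid1 rose at both days (1.25 ± 0.20 and 0.68), though its 28-day call was lost with library totals (adjusted p 0.078), and at 7 days 5 fell, among them Trim30d (-1.29 ± 0.31) and Cmya5 (-0.59 ± 0.15), which encodes a large protein of the muscle Z-disc region; with library totals 1 rose and 1 fell at 7 days. Of 11 FoxO factors and genes known to move with them in atrophy, 8 rose at 7 days, among them Foxo1 (1.96 ± 0.31), Gadd45a (4.26 ± 0.32) and Hdac4 (1.87 ± 0.15), and Foxo4 fell; with library totals 10 rose and none fell. At 28 days 5 of the 11 were called higher, Foxo1, Foxo3, Gadd45a, Myog and Hdac4, of which Foxo3 had not been called at 7 days; with library totals 3 were, without Foxo3 and Hdac4. No member with an early rise was called higher at 28 days, but the definition of an early rise favours this in advance. It therefore gives no contrast with these genes.

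Of the 10 tested members with a published part in muscle, Fbxo21 and Trim28 rose at 7 days, and Trim55, Trim72, Trim54 and Fbxw7 fell. With library totals 7 of these 10 were called higher and 2 lower. Trim32, the ligase mutated in a limb-girdle muscular dystrophy, did not pass: sham libraries at 7 days held 7.11, 11.2, 9.99 and 10.4 CPM and SCI with vehicle 8.73 to 10.4 CPM, with a log2 fold change of 0.00 ± 0.14. Fbxo31, the third in level per length among the members at 31.9 CPM per kb, stood at 173 ± 19 and 192 ± 26 CPM (SD, n = 4 and n = 6; 0.15 ± 0.10, adjusted p 0.2). Trim24 had a log2 fold change of -0.02 ± 0.08 and Trim33 of 0.02 ± 0.11.

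In all, 37 members were called at neither day nor between days in SCI with vehicle. Beside those named above they were Fbxl12, Fbxl15, Fbxl16, Fbxl19, Fbxl2, Fbxl4, Fbxl7, Fbxo22, Fbxo3, Fbxo33, Fbxo46, Fbxo7, Fbxw11, Fbxw2, Trim13, Trim2, Trim21, Trim23, Trim26, Trim3, Trim45, Trim56 and Trim68. Their log2 fold changes at 7 days ran from -0.75 in Trim2 (SE 0.32, adjusted p 0.059) to 0.57, and their levels from 0.106 to 31.9 CPM per kb. Fbxo3 stood at 122 CPM in sham and 111 CPM after SCI with vehicle, and Fbxw11 at 65.9 CPM in each. Exons of 18 members overlap a gene on the other strand. Beside Trim35, Trim54 and Trim72 these are Fbxo34, Fbxw4, Fbxw8 and Fbxw9, called at 7 days, and Fbxl12, Fbxl15, Fbxl2, Fbxl5, Fbxo11, Fbxo22, Fbxo3, Fbxo46, Fbxo7, Trim41 and Trim7, and reads of such pairs cannot be separated in these libraries.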

How the data were processed

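Messenger RNA of gastrocnemius was sequenced in 32 libraries, made with a kit that does not mark strand, per the labels' protocols. The deposited values were raw read counts per gene, not normalized. The submitters' processing notes name FastQC, Trim Galore, cutadapt, STAR and the build mm10; versions, annotation, read counter and strand setting were not given in the sources used here. Library totals lay between 9935424 and 14132960 counts. Symbols, exon lengths and overlaps came from GENCODE M21.

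Genes were filtered with filterByExpr (minimum count 10, minimum total 15), leaving 14955 genes, scaled by TMM, and tested in edgeR 4.0.16 (R 4.3.3) by the quasi-likelihood test with 1 mean per group over all 32 libraries. P-values were adjusted by Benjamini-Hochberg over all genes tested, and genes were called at an adjusted p under 0.05. The SE of a log2 fold change is its size over the root of the F statistic. CPM are of TMM-scaled libraries, except in the membership threshold, which used library totals. The script was tested on simulated data. Members, lists and tests were chosen with earlier results of these data known.

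Named members were the 8 largest called changes each way at 7 days, the 5 largest each way at 28 days and between days, the 3 smallest p each way for boldine, members with a published part in muscle, and the 5 most and 5 least alike to Trim63 and Fbxo32; other members named were chosen after their values were seen. Groups follow the titles; 1 boldine library carries a code of the vehicle series in its description and was kept with boldine. Alternatives were library totals, RLE size factors, no filter, DESeq2 1.42.0, a replicate block, a library set term, and leaving out each library. Values of some genes are not reported here.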

Additional observations from a re-analysis of the deposited data

Results flagged for a closer look

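Over 216 groups of a named member, 10 had 1 library far from the other libraries of its group by Dixon's criterion, and chance flags about 1 in 20, or 11. In SCI with vehicle at 7 days, library 3 was highest for Fbxo28 at 27.2 CPM (others 22.2 to 24.0) and for Trim24 at 88.3 CPM (others 58.5 to 69.3), and library 2 for Trim28 at 83.2 CPM (others 57.3 to 61.5). In SCI with boldine at 7 days, library 3 was lowest for Fbxo28 at 18.4 CPM (others 22.9 to 25.4) and for Trim55 at 34.0 CPM (others 39.6 to 42.4), and library 4 for Trim33 at 11.6 CPM (others 14.2 to 15.3). In SCI with vehicle at 28 days, Fbxo17 reached 7.87 CPM in library 2 (others 4.92 to 5.76) and Fbxw7 31.5 CPM in library 5 (others 21.4 to 24.9). In SCI with boldine at 28 days, library 4 was highest for Fbxw9 at 2.83 CPM (others 1.03 to 1.67) and for Trim65 at 4.53 CPM (others 3.56 to 3.81).

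The injury effect of 13 named members differed between days by edgeR's test of the difference, adjusted over all genes. On the log2 scale, 28 days minus 7 days, it was lower by the following values for early risers: -1.32 for Fbxo17, -0.84 for Fbxo6, -0.75 for Trim25, -0.70 for Trim16, -0.47 for Fbxo21 and -0.32 for Trim28. For members that fell at 7 days it was 1.32 for Trim35, 1.12 for Trim55, 0.80 for Fbxl17, 0.71 for Fbxo9, 0.70 for Trim72, 0.56 for Fbxo45 and 0.50 for Fbxl20. With library totals, of the differences of these 7 members only those of Trim35 and Trim55 kept their call.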

How the results depend on the processing

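Library totals in place of TMM moved most counts. Members higher and lower became 44 and 6 for SCI with vehicle at 7 days, against 47.5% and 9.11% of all genes. At 28 days they became 0 and 6, against 1.99% and 8.4%. For boldine against sham they were 45 and 7 at 7 days, against 52.1% and 7.94%. At 28 days boldine against sham gave 1 and 10, against 5.63% and 13.4%. The difference between days gave 2 and 46, against 3.56% and 42.1%. The log2 fold change turned to 0.087 for Fbxl20, 0.13 for Fbxw7 and 0.19 for Trim54 in vehicle at 7 days, and to 0.073 for Fbxl5, 0.24 for Fbxw5, 0.034 for Fbxw7, 0.21 for Trim24 and 0.14 for Trim54 with boldine at 7 days, which the shift of the scale by 0.39 and 0.445 brings about. At 28 days with vehicle the count of higher members was 0 without a filter, with the replicate block and with the set term. Lower members numbered 1 without a filter and 1 with the set term, where 2.83% of all genes were higher and 3.6% lower. For boldine against sham at 28 days the set term gave 0 higher and 0 lower, against 0.602% and 0.863% of all genes. Shares of all genes were not counted without a filter, with the replicate block or with 1 library left out. Leaving out 1 library gave 0 to 1 higher and 0 to 4 lower members for vehicle at 28 days, 1 to 6 higher and 4 to 8 lower for boldine against sham at 28 days (1 and 4 without sham library 2), and 5 to 10 lower for the difference between days (10 without SCI vehicle library 4 at 7 days). For vehicle at 28 days the 0 lower came without sham library 3, and 0 higher came without sham library 1 or 4 or SCI vehicle library 3, 5 or 6. Of the named calls, DESeq2 kept 77 and lost 1, and leaving out a library kept 818 of the refits and lost 92, none reversed. The cause of the other changes was not tested.

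Deviations of same-numbered libraries from their group means had r from -0.213 to 0.264. Such r cannot exclude shared housing or surgery days, which the labels do not give. A replicate block left 17 higher and 16 lower members in vehicle at 7 days. Low members such as Fbxl8 and Fbxw9 rest on few counts, which limits their precision.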
